A study of Mus musculus with 2 samples.

Results

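Chrdl2, Erfe, Apoe, Gpx3 and Calcr encode 4 secreted proteins and 1 receptor linked to the niche of the muscle stem cell (MuSC). These 5 genes, of 20830 and 26997 genes in the count tables of the study's libraries, were followed by the mouse symbol of their Ensembl gene. They were chosen because their counts are high in barcodes with few UMIs (unique molecular identifiers, which mark single captured molecules). The comparison that chose them sets "shallow" barcodes, with 3000 to 15000 UMIs and no UMI of the cell cycle genes Rrm2, Top2a and Cdk1, against "deep" barcodes, with at least 20000 UMIs. Differences between these groups are therefore a description of how the genes were selected and were not tested.

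The cells came from Pax7creERT2 R26-eYFPfl/fl mice on a C57BL6 background, in which tamoxifen given at 3 months of age turns on YFP in cells with an active Pax7 promoter. MuSCs called quiescent came from uninjured hindlimb muscle, and activated MuSCs were taken 72 hours after lower hindlimbs were injected with 40 uL of 1.2% barium chloride. All cells were sorted on YFP, so other cells enter as passengers of the sort. Quiescent and activated cells were loaded in 1 capture, which was split into a 10% aliquot, read by Illumina and nanopore sequencing, and a 90% aliquot, read by Illumina alone. No label ties a barcode to uninjured or injured muscle, and the capture has no replicate, so barcodes were grouped by depth and no test was run.

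In resting muscle, MuSCs lie between the fiber and its basal lamina, where signals from the niche and from the MuSCs themselves hold them out of the cell cycle. Calcr is the calcitonin receptor, a G protein-coupled receptor that raises cAMP and is a classical surface marker of adult quiescent MuSCs. Chrdl2 (chordin-like 2) binds bone morphogenetic proteins (BMPs) outside the cell. Erfe (erythroferrone, also called myonectin) is a hormone of the C1q/TNF family that lowers hepcidin in the liver and so frees iron. Apoe (apolipoprotein E) carries lipids between cells and is made in large amounts by macrophages. Gpx3 is the secreted glutathione peroxidase of plasma, a selenoprotein that reduces peroxides.

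Sequence upstream of 1 transcription start per gene was taken from RefSeq (GRCm38.p6) for 4 of the 5 genes, because their transcripts were high in the same barcodes. Chrdl2 is not in that table. RefSeq lists 3 starts for Apoe and 2 for Calcr, and the start at or nearest to the 5′ end of most long-read UMIs of the gene was taken. The last 160 bases before the start are given for each, and capitals mark a GGGCGG box on either strand.
Erfe promoter, chr1:91366270-91366429, plus strand: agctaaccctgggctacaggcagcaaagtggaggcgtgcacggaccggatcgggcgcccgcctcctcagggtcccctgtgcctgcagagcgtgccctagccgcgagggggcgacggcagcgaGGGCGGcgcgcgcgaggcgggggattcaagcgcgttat
Gpx3 promoter, chr11:54902694-54902853, plus strand: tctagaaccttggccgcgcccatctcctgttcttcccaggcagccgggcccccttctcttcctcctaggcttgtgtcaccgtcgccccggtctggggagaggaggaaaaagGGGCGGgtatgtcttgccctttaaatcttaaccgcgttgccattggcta
Calcr promoter, chr6:3763624-3763783, minus strand: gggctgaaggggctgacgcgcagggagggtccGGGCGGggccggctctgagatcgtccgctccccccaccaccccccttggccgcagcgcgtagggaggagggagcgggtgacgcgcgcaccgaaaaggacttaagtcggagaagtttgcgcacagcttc
Apoe promoter, chr7:19699189-19699348, minus strand: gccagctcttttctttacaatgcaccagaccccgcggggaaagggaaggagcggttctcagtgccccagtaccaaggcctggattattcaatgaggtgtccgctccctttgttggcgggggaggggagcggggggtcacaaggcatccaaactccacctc
Erfe, Gpx3 and Calcr each held 1 GGGCGG within the 250 bases before their start, at bases -38 to -33, -49 to -44 and -128 to -123. This box stood in 32.7% of all 32851 RefSeq promoters of the same length. Neither TATAAA (12.4% of promoters), CAGCTG (13.0%) nor GTGGGAA (5.42%), each searched on both strands, occurred before these 4 starts. TATAAA did occur before another Apoe start, at 19698621 (bases -96 to -91).

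In Gpx3, the codon that sets a selenoprotein apart is a TGA read as selenocysteine instead of stop. It is codon 73 of the 226 codons of ENSMUST00000082430.9 and lies in exon 2 (54907127 to 54907280) of the plus strand of chromosome 11, at 54907256 to 54907258. The stretch around it in the Gencode transcript (GRCm38) is shown with this codon in capitals.
Gpx3 coding sequence, chr11:54907235-54907279, plus strand: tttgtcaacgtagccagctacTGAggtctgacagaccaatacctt

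The aliquots were not independent sets of cells. Their tables shared 634 barcodes, and all 269 barcodes with at least 3000 UMIs in the 10% table also occurred in the 90% table. Shared barcodes resembled themselves across the tables (median Pearson r over genes of 0.933) more than they resembled other barcodes (0.712). Of the 1243 shallow and 606 deep barcodes of the 90% aliquot, 166 and 99 held at least 1000 UMIs in the 10% table. The levels, ratios and thinned shares of the 90% aliquot on which the comparisons rest are therefore also given without these shared barcodes. The 10% aliquot had 157 shallow barcodes (1114508 UMIs, median 6729 each) and 79 deep ones (5099209 UMIs, median 65499). The 90% aliquot had 6452314 UMIs in shallow and 29875734 in deep barcodes, with medians of 4680 and 47106. The 10 myogenic markers all had UMIs in shallow barcodes, at a summed 2773 and 3092 counts per 1000000 UMIs (CPM) in the 10% and the 90% aliquot, against 741 and 874 CPM in deep barcodes. Myod1 and Msc made up most of this sum in shallow barcodes (1106 and 750 CPM in the 10%, 1069 and 784 CPM in the 90% aliquot), whereas Des, Cdh15 and Itga7 were lower in shallow than in deep barcodes of both. Des had 253 against 323 CPM and 305 against 408 CPM. In bulk sums of this kind, fewer cells of a type and less RNA per cell cannot be told apart.

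Gpx3 had 2747 CPM in shallow and 62.4 CPM in deep barcodes of the 10% aliquot, with 95% Poisson intervals of 2651 to 2846 and 55.7 to 69.6. Its gene lies on the plus strand of chromosome 11 (54902453 to 54910377, GRCm38, as for all positions here). In the 90% aliquot its level was 73.8 CPM in deep and 3583 CPM in shallow barcodes, and 74.4 and 3652 CPM without the shared barcodes. These are 44.1-fold, 48.6-fold and 49.1-fold differences, and the intervals of the groups lie far apart in each table. Intervals here and below cover counting error only.

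Erfe, on the plus strand of chromosome 1 (91366430 to 91374217), had 290 CPM in shallow and 4.12 CPM in deep barcodes of the 10% aliquot, from 323 and 21 UMIs. Its levels in the 90% aliquot were 338 and 3.51 CPM, and 342 and 3.70 CPM without shared barcodes. The difference was 70.4-fold, 96.1-fold and 92.3-fold. The 3′ end of Erfe overlaps Ilkap on the other strand, and the sources used here do not give whether the counting used strand.

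Chrdl2, on the plus strand of chromosome 7 (100006172 to 100034728), had few UMIs outside shallow barcodes. In the 10% aliquot it had 173 UMIs in shallow barcodes (155 CPM) and 1 UMI in deep barcodes (0.196 CPM, interval 0.00497 to 1.09). The 90% aliquot held 1388 UMIs in shallow barcodes (215 CPM) and 40 in deep ones (1.34 CPM), of which 1 barcode held 11. Without shared barcodes the levels were 225 and 1.64 CPM.

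Apoe, on the minus strand of chromosome 7 (19696109 to 19699188), had 798 CPM in shallow and 41.4 CPM in deep barcodes of the 10% aliquot, and 1039 and 12.8 CPM in the 90% aliquot. The deep level of the 10% aliquot rested on 1 barcode, which held 146 of the 211 UMIs and 562 UMIs of the macrophage and leukocyte markers. Without that barcode it was 12.8 CPM. Leaving out the shared barcodes gave 1039 and 12.8 CPM in the 90% aliquot, an 81.3-fold difference.

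Calcr, on the minus strand of chromosome 6 (3685680 to 3764714), had the fewest UMIs of the 5 genes. It had 26 UMIs in shallow barcodes (23.3 CPM) and 1 UMI in deep barcodes of the 10% aliquot. In the 90% aliquot it had 226 UMIs in shallow (35.0 CPM, interval 30.6 to 39.9) and 22 in deep barcodes (0.736 CPM, 0.461 to 1.11), and without shared barcodes 38.0 and 0.863 CPM.

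**Figure D1:**
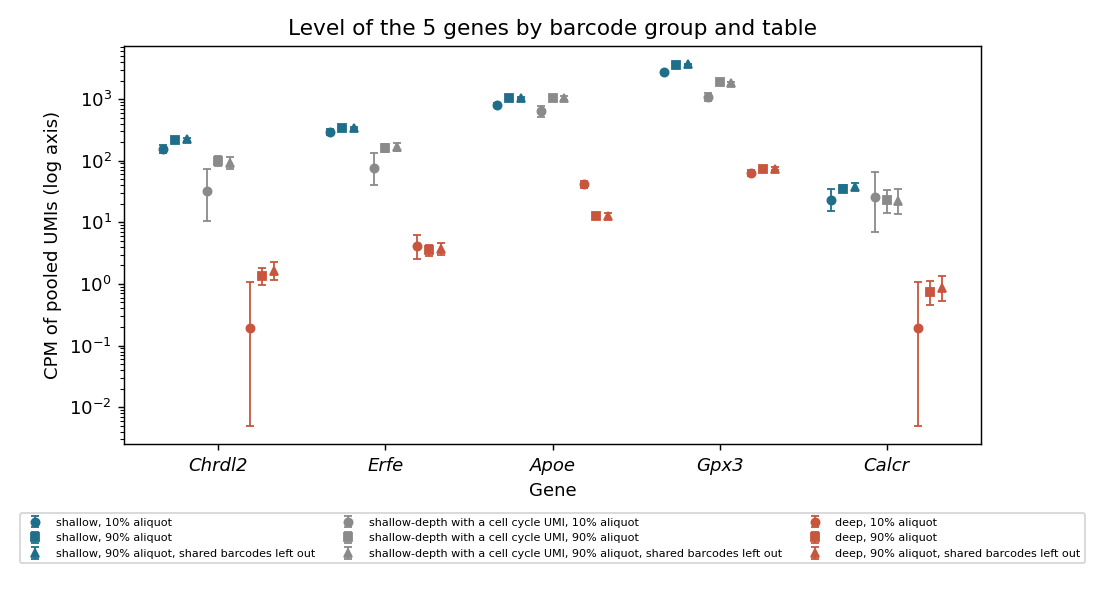
Level of each gene in CPM of pooled UMIs (log axis) in shallow, cell cycle-positive shallow-depth and deep barcodes of the 10% aliquot, the 90% aliquot and the 90% aliquot without shared barcodes, with 95% Poisson intervals. For all 5 genes the shallow level lies above the deep level in each table, and Apoe and Calcr of the grey group lie near the shallow level.

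Called changes were at least 2-fold after adding 10 CPM to both levels, in genes with at least 50 UMIs in both groups together. In the 10% aliquot, 4 of the 5 genes passed the UMI minimum, and all 4 were higher in shallow barcodes, where 9.49% of 7059 genes were higher and 19.2% lower. Calcr did not reach the minimum there. In the 90% aliquot 5 of 5 passed and were higher, where 7.25% of 12480 genes were higher and 11% lower (7.63% and 11.5% without shared barcodes). Since this contrast chose the genes, their counts carry no weight beyond that description. On this scale Gpx3 ranked 2 of 7059 genes in the 10% aliquot and 4 of 12480 in the 90% aliquot, with log2 ratios of 5.25 and 5.42. Apoe ranked 18 and 3 (3.97 and 5.53), Erfe 10 and 13 (4.41 and 4.69), and Chrdl2 16 and 18 (4.02 and 4.31). Calcr ranked 226 in the 90% aliquot, with a log2 ratio of 2.07. The median log2 ratio of all genes tested was -0.25 in the 10% and -0.11 in the 90% aliquot, so the typical gene was slightly lower in shallow barcodes.

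Just above the upper limit of the shallow group, the levels lay between those of shallow and deep barcodes. In the 12 barcodes of over 15000 and under 20000 UMIs of the 10% aliquot, Gpx3 had 576 CPM and Chrdl2 19.2 CPM, and in the 42 of the 90% aliquot they had 447 and 23.7 CPM. Erfe in these barcodes had 67.2 and 29.3 CPM. Calcr had 1 UMI (4.80 CPM) and 3 UMIs (4.19 CPM). Apoe had 724 CPM in the 10% aliquot, 382 CPM in the 90% aliquot (274 UMIs) and 92.5 CPM there without shared barcodes (54 UMIs). Barcodes with leukocyte markers were not left out of this class, and their part in its Apoe was not tested. In the 10% aliquot, 8 barcodes with at least 3 leukocyte UMIs held 244 Apoe UMIs, 147 of them in deep and none in shallow barcodes. In the 10% aliquot the intervals of Apoe and Calcr overlapped those of shallow barcodes. Below the shallow limit, in barcodes of 1000 to 3000 UMIs without a cell cycle UMI, Gpx3 was at 1090 and 2231 CPM and Apoe at 614 and 573 CPM. Erfe there was at 180 and 176 CPM and Chrdl2 at 42.3 and 144 CPM. Calcr had no UMI in this class of the 10% aliquot, and its 38.1 CPM in the 90% aliquot did not differ from the shallow level beyond the intervals.

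Within shallow barcodes, levels also changed with depth. In the 90% aliquot, Gpx3 fell from 4333 CPM in barcodes of 3000 to 5000 UMIs to 3451 CPM at 5000 to 8000 and 1742 CPM at 8000 to 15000, or 4399, 3347 and 1673 CPM without shared barcodes. Chrdl2 in the same classes had 227, 249 and 96.6 CPM (231, 265 and 81.2 without shared barcodes). Erfe had 363, 353 and 229 CPM (360, 367 and 199), and Calcr 47.4, 31.1 and 8.87 CPM (49.5, 33.4 and 7.12). Apoe had 970, 1027 and 1263 CPM, but 2 barcodes of the last class, with 12949 and 9291 UMIs, held 312 and 301 of its 1281 Apoe UMIs beside leukocyte markers. Without barcodes of at least 3 leukocyte UMIs, an alternative chosen after the data were seen, Apoe had 967, 976 and 603 CPM, and its highest class became its lowest. The 10% aliquot did not show the same course. Gpx3 there had 2842, 3414 and 1987 CPM, Chrdl2 195, 141 and 157 CPM, Erfe 273, 297 and 288 CPM, and Apoe 969, 777 and 763 CPM. The intervals of these 3 classes overlapped for Chrdl2, Erfe and Calcr. Barcodes over 40000 UMIs had the lowest Gpx3 in both tables, at 40.2 and 59.1 CPM.

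**Figure D2:**
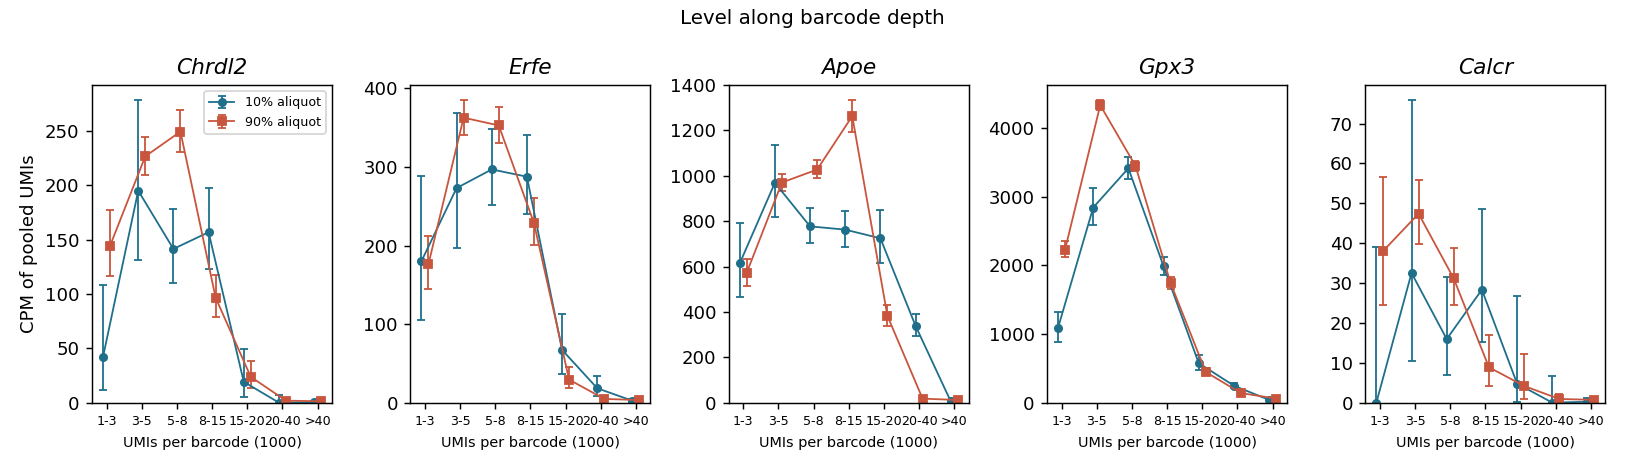
CPM of pooled UMIs of each gene (vertical axis) by class of UMIs per barcode (horizontal axis) in the 10% and the 90% aliquot, with 95% Poisson intervals; barcodes up to 15000 UMIs had no UMI of Rrm2, Top2a or Cdk1. Above 40000 UMIs all 5 genes are at 59.1 CPM or less, and Gpx3 in the 90% aliquot falls from 4333 CPM at 3000 to 5000 UMIs to 59.1 CPM.

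Deep and shallow barcodes differ in depth as well as in these genes, so the shallow barcodes were also set against barcodes of the same depth range that did hold a UMI of Rrm2, Top2a or Cdk1. There were 21 such cell cycle-positive barcodes in the 10% aliquot (median 6464 UMIs) and 148 in the 90% aliquot (median 5593). This contrast shares the shallow barcodes with the one that chose the genes and is no independent check. Gpx3 was 2.56-fold and 1.92-fold higher in shallow than in cell cycle-positive barcodes, with 1074 and 1870 CPM in the latter. Erfe was 3.78-fold and 2.08-fold higher and Chrdl2 4.86-fold and 2.16-fold higher, the latter from 5 and 101 UMIs in cell cycle-positive barcodes. Without shared barcodes the folds in the 90% aliquot were 2.03 for Gpx3, 2.04 for Erfe and 2.43 for Chrdl2. Calcr had 25.6 and 22.7 CPM in cell cycle-positive barcodes, from 4 and 23 UMIs, and its intervals overlapped those of shallow barcodes. After adding 10 CPM, 3 of the 4 genes tested in the 10% aliquot and 2 of the 5 in the 90% aliquot (Chrdl2 at 2.05-fold and Erfe at 2.01-fold) were past 2-fold and higher in shallow barcodes, where 11.3% and 1.45% of all genes were higher and 9.33% and 4.76% lower. Without shared barcodes the count in the 90% aliquot was again 2, with Gpx3 in place of Erfe. Erfe, at 1.99-fold, was no longer past 2-fold and Gpx3, at 2.02-fold, was, beside Chrdl2 at 2.29-fold, where 1.92% of all genes were higher and 5.21% lower. Erfe and Gpx3 thus lie at the limit in this table. With all barcodes the median log2 ratio of all genes in this contrast was 0.11 and -0.01. Mitochondrial genes took 0.883% and 1.28% of UMIs in shallow and 2.62% and 2.09% in cell cycle-positive barcodes, and the part of this in the differences was not tested.

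Apoe in this contrast depended on few barcodes. Its level in cell cycle-positive barcodes was 639 CPM in the 10% aliquot (interval 520 to 777) and 1054 CPM in the 90% aliquot, against 798 and 1039 CPM in shallow barcodes. In the 90% aliquot, however, 1 of the 148 cell cycle-positive barcodes held 505 of their 1069 Apoe UMIs, together with 527 UMIs of macrophage and leukocyte markers and 1 UMI of Gpx3. When barcodes with at least 3 UMIs of those markers were left out, Apoe was at 561 CPM (516 to 610) in cell cycle-positive and 916 CPM (893 to 940) in shallow barcodes. Without shared barcodes as well, these levels were 487 CPM (443 to 536) and 891 CPM (866 to 917). In the 10% aliquot no cell cycle-positive barcode was lost, and Apoe in shallow barcodes was 807 CPM (755 to 862), so the intervals of the groups overlapped. The counts of genes past 2-fold stayed at 3 and 2 without leukocyte barcodes, where 11.1% and 1.49% of all genes were higher and 9.61% and 5.14% lower.

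Barcodes with at least 3 leukocyte UMIs, called leukocyte barcodes here, held Apoe and little of the other genes. The 8 barcodes of the 10% aliquot with at least 1000 UMIs and 3 leukocyte UMIs held Apoe at 1046 CPM, Gpx3 at 12.9 CPM from 3 UMIs, and no UMI of Chrdl2, Erfe or Calcr. The 38 such barcodes of the 90% aliquot held Apoe at 1753 CPM and Gpx3 at 208 CPM, with 3 UMIs of Chrdl2, 5 of Erfe and none of Calcr. Of these 38, 18 were deep barcodes. These 18 held 144 of the 197 Gpx3 UMIs, 3 UMIs of Chrdl2 and 3 of Erfe, but 31 of the 1660 Apoe UMIs. The 1 deep barcode with Chrdl2 also held 19 UMIs of Myod1 and 24 of Des. In the shallow group, 12 of the 38 took 875 of 6701 Apoe UMIs, and the same 2 barcodes alone held 312 and 301. The macrophage and leukocyte list (12 genes) summed to 348 CPM in shallow and 122 CPM in deep barcodes of the 10% aliquot. In shallow barcodes 7 of 12 genes were above 0, and Ptprc, Adgre1, Csf1r, C1qa and C1qc were at 0. Cd74 alone gave 235 of the 348 CPM, and only 1 shallow barcode had at least 3 leukocyte UMIs. Tyrobp, Cd68 and Laptm5 were also higher in shallow than in deep barcodes, whereas Fcer1g, Lyz2 and C1qb were lower. In the 90% aliquot all 12 had UMIs, and the list summed to 338 CPM in shallow and 7.77 CPM in deep barcodes.

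**Figure D3:**
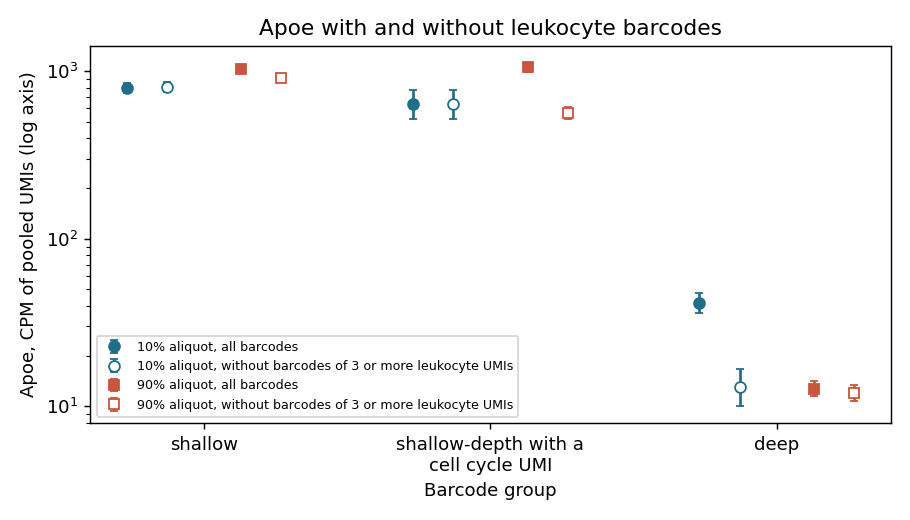
Apoe in CPM of pooled UMIs (log axis) in shallow, cell cycle-positive shallow-depth and deep barcodes, with all barcodes (filled) and without barcodes of at least 3 leukocyte marker UMIs (open), with 95% Poisson intervals. Leaving these barcodes out lowers the cell cycle-positive group of the 90% aliquot from 1054 to 561 CPM and the deep group of the 10% aliquot from 41.4 to 13.1 CPM.

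Apoe remained higher in shallow than in deep barcodes without leukocyte barcodes. Its log2 ratio of shallow over deep was then 5.15 in the 10% aliquot and 5.39 in the 90% aliquot, against 3.97 and 5.53 with them. Barcodes were then sought without UMIs of leukocyte, fibro-adipogenic, endothelial, mural, glial or adipocyte markers. Only markers found in at most 10% of deep barcodes were used for this and for leukocyte UMIs. In the 10% aliquot these were 11 of 12 leukocyte and 8 of 9 fibro-adipogenic markers present. Of the 5 adipocyte markers, 0 were listed in the 10% and 3 in the 90% aliquot, so adipocyte barcodes could not be left out in the former. Shallow barcodes with no UMI of the markers used still held Apoe at 747 CPM (114 barcodes) and 848 CPM (889 barcodes), and Gpx3 at 2801 and 3732 CPM. Other lists moved with the groups too. Fibro-adipogenic markers summed to 195 and 316 CPM in shallow and 66.5 and 34.8 CPM in deep barcodes, led by Col3a1 at 148 and 218 CPM, while Pdgfra, Clec3b and Pi16 were at 0 in shallow barcodes of both tables. Endothelial markers summed to 29.6 and 24.0 CPM, mural markers to 86.1 and 93.5 CPM and glial markers to 87.9 and 6.35 CPM in shallow barcodes. Erythroid markers, of interest for Erfe, were at 0 in shallow barcodes of the 10% aliquot and at 0.930 CPM in the 90% aliquot. Of the 6 markers, only 2 were listed in the 10% and 4 in the 90% aliquot.

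UMIs of the genes also occurred in barcodes too shallow to be counted as cells. Barcodes under 500 UMIs held Gpx3 at 825 CPM (41 UMIs) and 505 CPM (50 UMIs), Apoe at 262 and 172 CPM, and Erfe at 101 and 50.5 CPM, from 5 UMIs in each table. The levels of these 3 genes exceed those of deep barcodes. Chrdl2 had 2 and 1 UMIs there and Calcr 0 and 3. Mitochondrial genes made up 8.51% and 15.3% of the UMIs of these barcodes. Whether these UMIs are free RNA or come from damaged cells, and how much free RNA adds to deep barcodes, was not tested.

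As a share of barcodes with at least 1 UMI, Gpx3 was found in 91.1% of shallow and 77.2% of deep barcodes of the 10% aliquot, and in 94.7% and 70.3% of the 90% aliquot. A deeper barcode has more chances to hold a UMI, so shares were compared at equal depth. After each barcode was thinned to 3000 UMIs, Gpx3 was found in 89.8% (84.0 to 94.1) of shallow and 11.4% (5.34 to 20.5) of deep barcodes, and in 93.6% and 16.7% in the 90% aliquot. No barcode was lost to thinning. Apoe was left in 66.9% and 5.06% of barcodes, and in 74.0% and 3.80% in the 90% aliquot. Erfe was left in 43.3% and 1.27%, and in 46.4% and 0.825%. Chrdl2 was left in 25.5% of shallow barcodes and in 0 of 79 deep ones, and in 32.2% and 0.495% in the 90% aliquot. Calcr was left in 4.46% of shallow barcodes and in 0 of 79 deep ones, and in 9.41% and 0.165% in the 90% aliquot. A count of 0 of 79 allows a share of up to 4.56% (Clopper-Pearson). Without shared barcodes the thinned shares of shallow barcodes were 93.4% for Gpx3, 73.4% for Apoe, 47.1% for Erfe, 34.3% for Chrdl2 and 10.2% for Calcr, and those of deep barcodes were 17.0%, 3.16%, 0.592%, 0.197% and 0.394%.

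For comparison, 38 barcodes of the 90% aliquot had at least 1000 UMIs and at least 3 leukocyte UMIs (median 19021 UMIs). Chrdl2 was found in 2.63% of them (1 barcode) and Erfe in 7.89% (3 barcodes). The unthinned deep shares of these genes were 2.97% and 11.7%, at a median of 47106 UMIs. Since 18 of the 38 are deep barcodes, among them the 1 with Chrdl2 (73337 UMIs, 19 of Myod1), they set no background for deep barcodes. Calcr was found in 0 of the 38 and in 2.64% of deep barcodes. Shallow barcodes, although less deep, had a UMI of Chrdl2 in 40.8%, of Erfe in 57.0% and of Calcr in 13.0%. Gpx3 was found in 57.9% of the 38 barcodes.

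**Figure D4:**
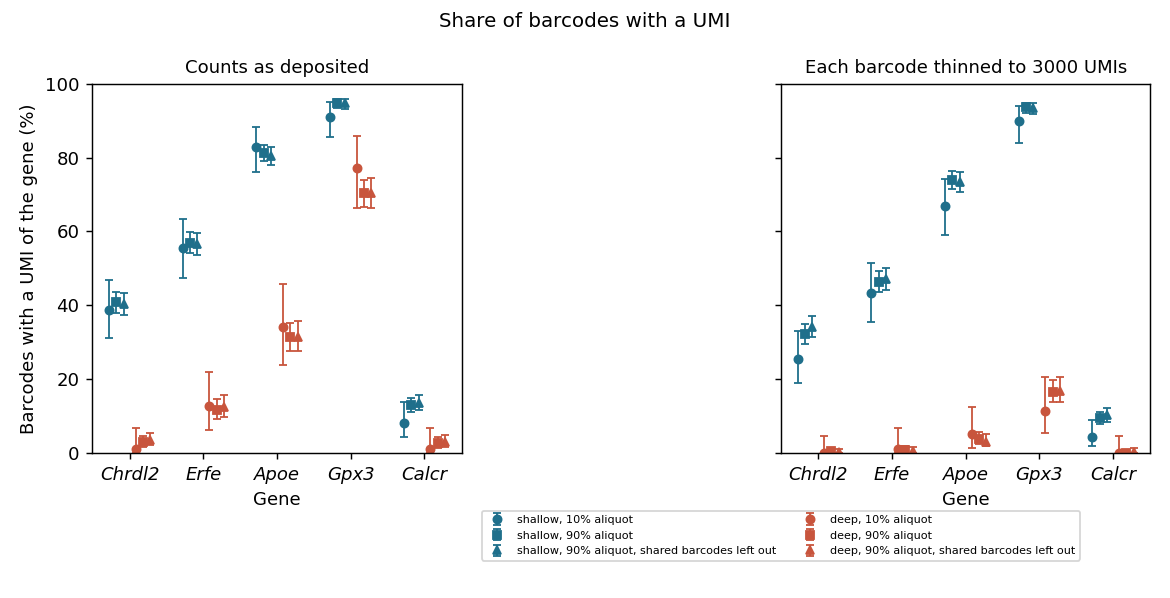
Share of barcodes with at least 1 UMI of each gene (vertical axis, percent) in shallow and deep barcodes of each table, as deposited (left) and after thinning each barcode to 3000 UMIs (right), with exact 95% binomial intervals. At equal depth Gpx3 is found in 89.8% and 93.6% of shallow barcodes and in 11.4% and 16.7% of deep ones.

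Most shallow barcodes held several of the genes at once. At least 1 UMI of 3 of the 5 genes was found in 35.0% and 35.1% of shallow barcodes, of 4 in 26.1% and 25.9%, and of all 5 in 3.18% and 4.26%. None of the genes was found in 7.64% and 3.06% of them. Among deep barcodes, 54.4% and 48.8% held exactly 1 of the genes and 12.7% and 18.8% held none, before thinning. Within shallow barcodes of the 90% aliquot, Erfe was found in 70.4% of barcodes with Chrdl2 and in 47.7% of those without it, or 70.1% and 47.7% without shared barcodes. The corresponding shares of Erfe in the 10% aliquot were 67.2% and 47.9%. Deeper barcodes hold more of any gene, so these shares are a description.

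The UMIs were spread unevenly over shallow barcodes. The 10% of shallow barcodes with the most Gpx3 held 25.9% and 26.3% of its UMIs, with a median of 16 UMIs per barcode in both tables. For Chrdl2 the top 10% held 51.4% and 53.0%, and its median was 0. For Erfe it held 40.9% and 40.8% (median 1), and for Apoe 37.0% and 44.5% (medians 4 and 3). No single shallow barcode held more than 7.51% of the UMIs of Chrdl2, Erfe, Apoe or Gpx3.

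Shallow barcodes were further divided by Myod1, which encodes the transcription factor that starts the myogenic program and is made when MuSCs leave quiescence. Gpx3 was higher in the 83 and 604 shallow barcodes with a UMI of Myod1 (3065 and 3888 CPM) than in the 74 and 639 without one (2385 and 3290 CPM), and the intervals did not overlap. Erfe differed less, with 322 and 253 CPM in the 10% aliquot and 336 and 339 CPM in the 90% aliquot, and its intervals overlapped in both. Chrdl2 (163 and 146 CPM, and 209 and 221 CPM) and Calcr (33.8 and 36.2 CPM in the 90% aliquot) also had overlapping intervals. Apoe in the 90% aliquot was at 839 CPM with and 1231 CPM without Myod1, and at 838 and 994 CPM when leukocyte barcodes were left out. Without shared barcodes these values were 803 and 1263 CPM, and 801 and 978 CPM, and those of Gpx3 were 3936 and 3382 CPM. In the 10% aliquot Apoe was at 812 and 781 CPM, so the difference in Apoe was not seen there.

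Over 10 depth classes, 5 from each table, other genes followed the same course. Pearson correlations of log2(CPM + 10) were taken with 9339 genes of at least 200 UMIs. They describe points that share depth and barcodes and have no p. Closest to Gpx3 were Map1lc3a, Stat3 and Pknox1 (r of 0.994 each). Erfe was closest to Pde4b (0.999), Ppp1r15a (0.998) and Fgfr1 (0.997), and Chrdl2 to Camk2n1, Rgs4 and Junb (0.996, 0.996 and 0.995). Apoe was closest to Fxyd6 (0.987), Tspan15 (0.981) and Selenop (0.979), and Calcr to Osgin1 (0.977), Rcan1 (0.972) and Smim3 (0.970). Likeness of this kind was common, since 291 genes had an r over 0.95 with Gpx3, 305 with Chrdl2 and 337 with Erfe. The counts were 53 with Apoe and 32 with Calcr. Leukocyte barcodes were kept in these classes, and their part in the Apoe correlations was not tested. At 8000 to 15000 UMIs in the 90% aliquot, Apoe was at 1263 CPM with them and 603 CPM without.

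Other genes of the same pathways were counted as higher or lower where they passed 2-fold in one direction in both aliquots. Of 7052 genes tested in both, 8.18% were higher and 15.8% lower in shallow barcodes, with median log2 ratios of -0.25 in each aliquot. Every call named here held in the 90% aliquot without shared barcodes. Among BMP modulators like Chrdl2, 1 of 5 tested was higher, Fstl1 (log2 1.60 and 2.09). Nbl1, another BMP antagonist, was at 0.36 and 0.66, and the medians of the list were 0.71 and 0.66. Of 11 BMP ligands, receptors, SMADs and targets, 3 were higher and none lower. They were the ligand Bmp4 (41.3 against 3.92 CPM, and 56.1 against 1.71 CPM), the receptor Bmpr2 (log2 1.05 and 1.33) and the target Id3 (log2 1.87 and 2.10). Id1, a target as well, was at -0.45 and -0.31, and the list medians were 0.10 and 0.32.

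Erfe's relatives and the genes of iron handling gave little. Of the C1q/TNF family, 2 genes were tested and neither passed, with C1qtnf3 at log2 ratios of 0.31 and 0.96 and list medians of 0.26 and 0.64. None of 5 iron genes passed in both aliquots, and their medians were -0.37 and -0.10. Tfrc, the transferrin receptor that brings iron into cells, was at -0.57 and -1.28, and Fth1, the ferritin heavy chain, was at 0.02 and 0.12. Among genes of lipoprotein handling, 1 of 5 tested was higher, the Apoe receptor Vldlr (33.2 against 5.10 CPM, and 34.3 against 5.09 CPM). Lrp1, another receptor that takes up Apoe, was at log2 ratios of 1.16 and 0.99, and the list medians were 0.79 and 0.57.

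Gpx1 and Gpx8, 2 other peroxidases of the glutathione peroxidase family, were lower in shallow barcodes, opposite to Gpx3. Of 8 genes of peroxide reduction and glutathione synthesis tested, with medians of -0.24 and -0.29, 1 was higher and 3 were lower in shallow barcodes. Gpx1, the intracellular peroxidase of the cytosol, had 50.2 against 239 CPM in the 10% and 66.8 against 275 CPM in the 90% aliquot. Gpx8 was at log2 ratios of -1.61 and -1.43, and Gsr, which regenerates reduced glutathione, was lower at -1.22 and -1.48. Gclm, the modifier subunit of the enzyme that limits glutathione synthesis, was higher at 1.15 and 1.20, and Gpx4 was at 0.32 and 0.60. Of 14 selenoproteins and factors of selenocysteine insertion (medians 0.13 and -0.09), 3 were higher and 3 lower. Selenop, the secreted selenium carrier, had 85.2 against 8.82 CPM and 145 against 5.79 CPM. Selenok (log2 1.68 and 1.99) and Txnrd1 (1.44 and 1.26) were also higher, whereas Selenoh (-3.54 and -3.39), Pstk (-1.44 and -1.23) and Selenof (-1.18 and -1.11) were lower.

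Of 13 genes tested around Calcr signalling (medians 0.49 and 0.27), 3 were higher and 1 lower. Crem, a cAMP-responsive transcription factor, had 131 against 8.24 CPM and 144 against 7.63 CPM, Col5a3, a chain of collagen V, was at log2 ratios of 1.96 and 1.98, and Yap1 at 1.11 and 1.03. The protein kinase A subunit Prkar2b was lower (-1.44 and -1.72), while Gnas, the stimulatory G protein, was at 0.91 and 0.92. Of 22 genes of MuSC quiescence (medians 0.79 and 0.85), 6 were higher and none lower: Spry1 (3.37 and 3.17), Sdc4 (3.09 and 3.27), Myf5 (3.00 and 2.70), Heyl (2.64 and 3.34), Notch3 (1.70 and 1.47) and Vcam1 (1.34 and 1.14). Pax7, which marks MuSCs, was at 0.77 and 0.69. Of 10 other secreted niche factors (medians 1.15 and 1.46), 5 were higher and none lower. They were the basement membrane chains Col4a1 (96.9 against 2.16 CPM, and 104 against 1.67 CPM), Col4a2, Lamc1 (1.48 and 1.02) and Lama2 (1.33 and 1.32), and the growth factor Tgfb2 (1.43 and 1.53).

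The nanopore reads of the 10% aliquot were counted on the same barcodes and hold 8297203 UMIs for 68065 isoforms of 12032 genes. They read the same molecules of the same cells by another route, so they are not a replicate. Gpx3 had 7379 CPM in shallow and 274 CPM in deep barcodes, and Apoe 1221 and 100 CPM. Erfe had 742 and 25.9 CPM, Chrdl2 211 and 3.46 CPM, and Calcr 68.0 and 1.08 CPM, from 94 and 5 UMIs. The log2 ratios after adding 10 CPM were 4.70 for Gpx3, 4.39 for Erfe, 4.04 for Chrdl2, 3.48 for Apoe and 2.82 for Calcr. The short-read ratios of the same barcodes were 5.25, 4.41, 4.02, 3.97 and 1.71 in the same order. On this scale Gpx3 and Apoe were lower and Calcr higher by long reads. The likeness of Erfe and Chrdl2 and the higher ratio of Calcr rest on the 10 CPM added. Their plain folds by long and short reads were 28.6 and 70.4 for Erfe, 61.1 and 792 for Chrdl2, and 62.9 and 119 for Calcr. The short-read folds of Chrdl2 and Calcr rest on 1 deep UMI each. Without leukocyte barcodes, the long-read ratio of Apoe was 4.54.

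The 5 genes had 63 isoforms in the long-read table, and they differed in how far 1 isoform prevailed. Gpx3 had 9 isoforms, all beginning at 54902926 on chromosome 11, and 1 of them held 91.2% (90.6 to 91.8) of its UMIs in shallow and 88.2% (86.3 to 89.9) in deep barcodes. Apoe had 3 isoforms. The one reaching from 19696272 to 19699188 on the minus strand of chromosome 7 held 94.4% (93.2 to 95.4) of 1688 UMIs in shallow and 85.8% (82.3 to 88.8) of 464 UMIs in deep barcodes. Without leukocyte barcodes the deep share was 78.2% (71.7 to 83.8) of 193 UMIs. Its 5′ end is the start site of the Apoe promoter printed above, whereas the other two isoforms begin 136 and 138 bases downstream. All isoforms of Apoe and Gpx3 in the table span the coding sequence, meaning that their ends enclose it. This does not show which exons they hold.

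Erfe was spread over 31 isoforms. The reference transcript ENSMUST00000086861.11, from 91366430 to 91374217 on the plus strand of chromosome 1, held 24.4% (21.8 to 27.1) of 1026 UMIs in shallow and 16.7% (10.5 to 24.6) of 120 UMIs in deep barcodes. A further 57.9% and 71.7% began at 91366460, 30 bases downstream of the RefSeq start. Isoforms whose ends enclose the coding sequence, whatever their exons, held 88.6% (86.5 to 90.5) of Erfe UMIs in shallow and 80.0% (71.7 to 86.7) in deep barcodes. Chrdl2 had 14 isoforms on the plus strand of chromosome 7, and 84.9% of its 292 shallow UMIs began at 100006072, upstream of the 100006404 start of the reference transcript ENSMUST00000032977.10. Calcr had 6 isoforms on the minus strand of chromosome 6. ENSMUST00000171613.7 (3685680 to 3763630) held 56.4% (45.8 to 66.6) of 94 shallow UMIs, and its 5′ end lies 7 bases upstream of the RefSeq start. The 16 UMIs of Chrdl2 and 5 UMIs of Calcr in deep barcodes are too few to compare shares.

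**Figure D5:**
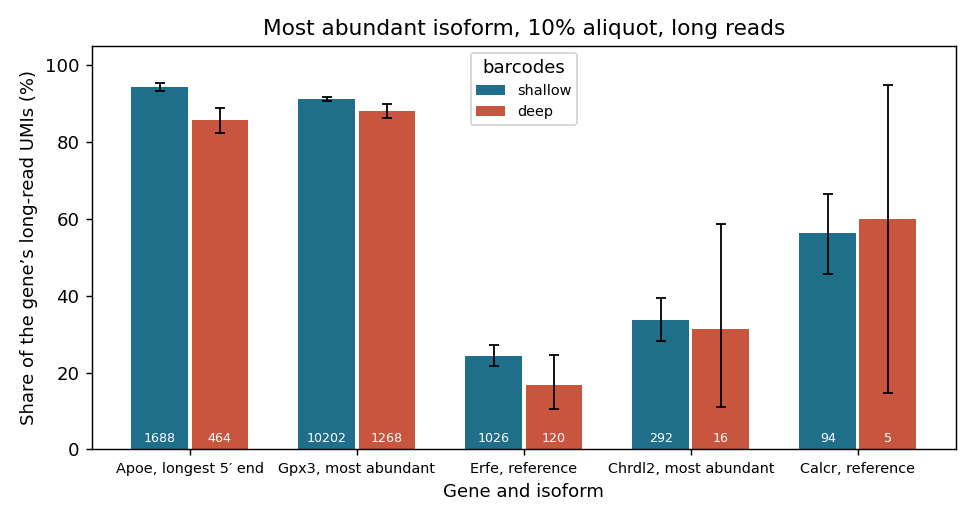
Share of the long-read UMIs of each gene (vertical axis, percent) held by its most abundant isoform in shallow and deep barcodes of the 10% aliquot, with exact 95% binomial intervals and the UMIs of the gene in each bar. The share of the longer Apoe isoform is 94.4% in shallow and 85.8% in deep barcodes, and the deep bars of Chrdl2 and Calcr rest on 16 and 5 UMIs.

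The annotation assembled from the long reads gives exon structures with the number of reads behind them, over all barcodes. Of 4828 Apoe reads, 97.5% held the complete splicing of the coding sequence of ENSMUST00000174064.8, and 3.62% came from an isoform of 12 exons that runs on into Tomm40 upstream. The isoform reaching to 19699188 had 39.0% of these Apoe reads and a form of 4 exons beginning at 19699052 had 38.1%, whereas the count table gave the former 91.4% of the Apoe UMIs over all barcodes. The reads of the annotation and the UMIs of the table thus split the Apoe starts differently, and the shares by barcode group above hold for the count table. For Gpx3 the share with the whole coding structure was 89.9% of 20915 reads. It was 62.8% of 772 reads for Chrdl2, 30.4% of 263 reads for Calcr and 26.5% of 2863 reads for Erfe. Erfe had 42 annotated isoforms, 41 of them not named after a Gencode transcript, and 36 overlapped Ilkap on the other strand. Calcr had 6, of which 4 were not named after one. For Calcr, 22.4% of the reads were a 2-exon form ending at 3751313, short of most of the coding sequence.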

How the data were processed

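Single-cell RNA from 1 capture of YFP-sorted mouse MuSCs was sequenced as 2 libraries. The authors deposited UMI counts per gene and barcode, made with scPipe and not normalized (6772259 UMIs in 1991 barcodes and 39044129 UMIs in 3001), and long-read isoform tables, also of UMI counts, for which FLAMES and minimap2 were run on mm10 with Gencode vM24. The submitters' notes also name Cell Ranger 1.3, minimap2 2.17 and GRCm38.p6. Symbols and positions came from Gencode vM21 (GRCm38), which named 20791 of 20830 and 26939 of 26997 gene IDs. UMIs were summed per barcode group and divided by the group's total to give CPM, with exact 95% Poisson intervals, and shares had Clopper-Pearson intervals. Ratios were taken after adding 10 CPM. No p-value was computed, because barcodes of 1 capture are not replicates. The members and gene lists were chosen with earlier results of these data known. The genes named are the 5 genes, up to 4 genes of each list with the largest ratio among those past 2-fold in both aliquots, with further members of each list named after their values were seen, and the 3 genes nearest to each in depth course. Isoform numbers differ between the count table and the annotation, so exon structures were read only from the annotation. Doublets (8 of 330 and 3 of 2420 barcodes by Scrublet, scanpy 1.11.5) were kept except in an alternative. The second share is so low that the caller cannot be taken to have worked there. On simulated counts, 200 of 200 and 109 of 109 changed genes over 20 CPM were recovered in the 10% and the 90% aliquot. The planted changes were 4-fold and 8-fold, up or down, in genes of at least 200 UMIs, with counting noise only. Recovery of changes near 2-fold, or with more spread between barcodes, was not tested. Changed genes of 20 CPM or less were left out of these counts, and their recovery is not given here. Python 3.11.15 with scipy 1.17.1 was used.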

Additional observations from a re-analysis of the deposited data

How the results depend on the processing

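No paired analysis was possible because the labels give 1 library per aliquot and no replicate number that pairs groups. Leaving out the barcodes found in both tables gave no value for the 10% aliquot, in which all shallow and deep barcodes are shared. The share among isoforms named after a reference transcript alone was not run, since Erfe, Apoe and Calcr have 1 such isoform each and Gpx3 has 0.

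Under the alternatives with deep barcodes, 4 of the 5 genes were past 2-fold in the 10% aliquot and 5 in the 90% aliquot, with 3 exceptions. Adding 50 CPM gave 4 in the 90% aliquot, and in the 10% aliquot a minimum of 200 UMIs gave 3 and no minimum gave 5. With cell cycle-positive barcodes in place of deep ones, chosen after the data were seen, the count was 3 in the 10% and 2 in the 90% aliquot, with or without leukocyte barcodes, and 2 without shared barcodes. The log2 ratio of Apoe in the 90% aliquot was then -0.0210, or -0.00778 without shared barcodes, and that of Calcr in the 10% aliquot -0.0936, or -0.0817 without leukocyte barcodes. The cause was not tested. Of 185 ratios of the 5 genes recomputed, 91 stayed within the counting interval, 90 left it and 4 changed sign.

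Adding 1 CPM gave 2184 lower genes in the 10% aliquot and 1910 higher and 3225 lower genes in the 90% aliquot. Adding 50 CPM gave 256 higher and 388 lower, and 304 higher and 403 lower genes. Thinning to 3000 UMIs left 263 higher and 357 lower genes of 1617 tested in the 10% aliquot, and a minimum of 200 UMIs left 256 and 868 of 2971, both with fewer genes tested. These compare with 670 higher and 1354 lower, and 905 higher and 1376 lower.

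The share of the most abundant Erfe isoform in shallow barcodes was 21.8% with groups by long-read UMIs and 21.1% over all barcodes. Over all barcodes the shares were 91.4% for Apoe and 88.0% for Gpx3. The deep Apoe share was 71.4% with at least 40000 UMIs and 78.2% without leukocyte barcodes. The Calcr share was 67.1% among isoforms of at least 15 UMIs. Adding 1 CPM, adding 50 CPM or thinning moved the median log2 ratio of all genes in the 10% aliquot by -0.11, 0.14 and 0.16.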
